A study of Mus musculus with 4 samples.

Results

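Mitochondrial ribosomal protein genes are the nuclear genes named Mrpl for the large subunit and Mrps for the small subunit of the ribosome inside mitochondria. They were taken here by name, from probe sets (groups of array probes against 1 transcript) annotated with a single gene symbol that starts with Mrpl or Mrps and a digit. This gave 76 genes, 47 of the large and 29 of the small subunit, on 160 probe sets, out of 18193 genes on the arrays. The RNA came from E2f4 knockout and wild-type neurospheres, which are floating cultures of neural stem and progenitor cells, grown from the ventral telencephalon of mouse forebrain at E12.5, in embryonic days. There was 1 RNA sample per genotype, and each was run on an Affymetrix MOE430A array with 127 of the member probe sets and an MOE430B array with 33, so 4 arrays in all. E2F4 is a transcription factor that acts with pocket proteins, mostly to repress cell-cycle genes. The labels give E2f4 status only, and the allele, strain and number of embryos are not given in the sources used here. With no replicates no test was possible, and a value that differs between these RNAs cannot be ascribed to genotype.

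The mitochondrial ribosome makes the few proteins that mitochondria encode themselves, all of them core parts of the respiratory chain and ATP synthase. Its RNAs are transcribed from mitochondrial DNA, while every one of its proteins is made in the cytosol from nuclear genes and imported. Part of the proteins descend from bacterial ribosomal proteins and the others are particular to mitochondria. Loss of many of them impairs respiration, and several are disease genes in human.

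The mitochondrial ribosomal protein genes were expressed nearly without exception and differed little between the knockout and wild-type samples. Both samples reached a floor, set at the middle signal of each array design (736 on MOE430A and 942 on MOE430B), for 73 of the 76 genes, against 55.9% of all genes on the arrays. Genes that pass this floor are called measured. Differences are log2 ratios of knockout over wild type, centred on the median ratio of each design and averaged over a gene's measured probe sets. The median was 0.09 for the 45 measured large subunit genes and 0.02 for the 28 measured small subunit genes, against -0.001 over all 10171 measured genes. The ratio was above 0 for 26 large and 15 small subunit genes, or 41 of 73, where 49.8% of all measured genes were above 0. For the small subunit the mean, -0.04, had the opposite sign to the median. Ratios of 1.5-fold or more were found for 2 measured members on the higher side, Mrpl37 and Mrps36, and 2 on the lower side, Mrpl18 and Mrpl38. Among all measured genes, 3.51% passed this size on the higher side and 3.86% on the lower side, so the members' share on each side was near the background.

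**Figure D1:**
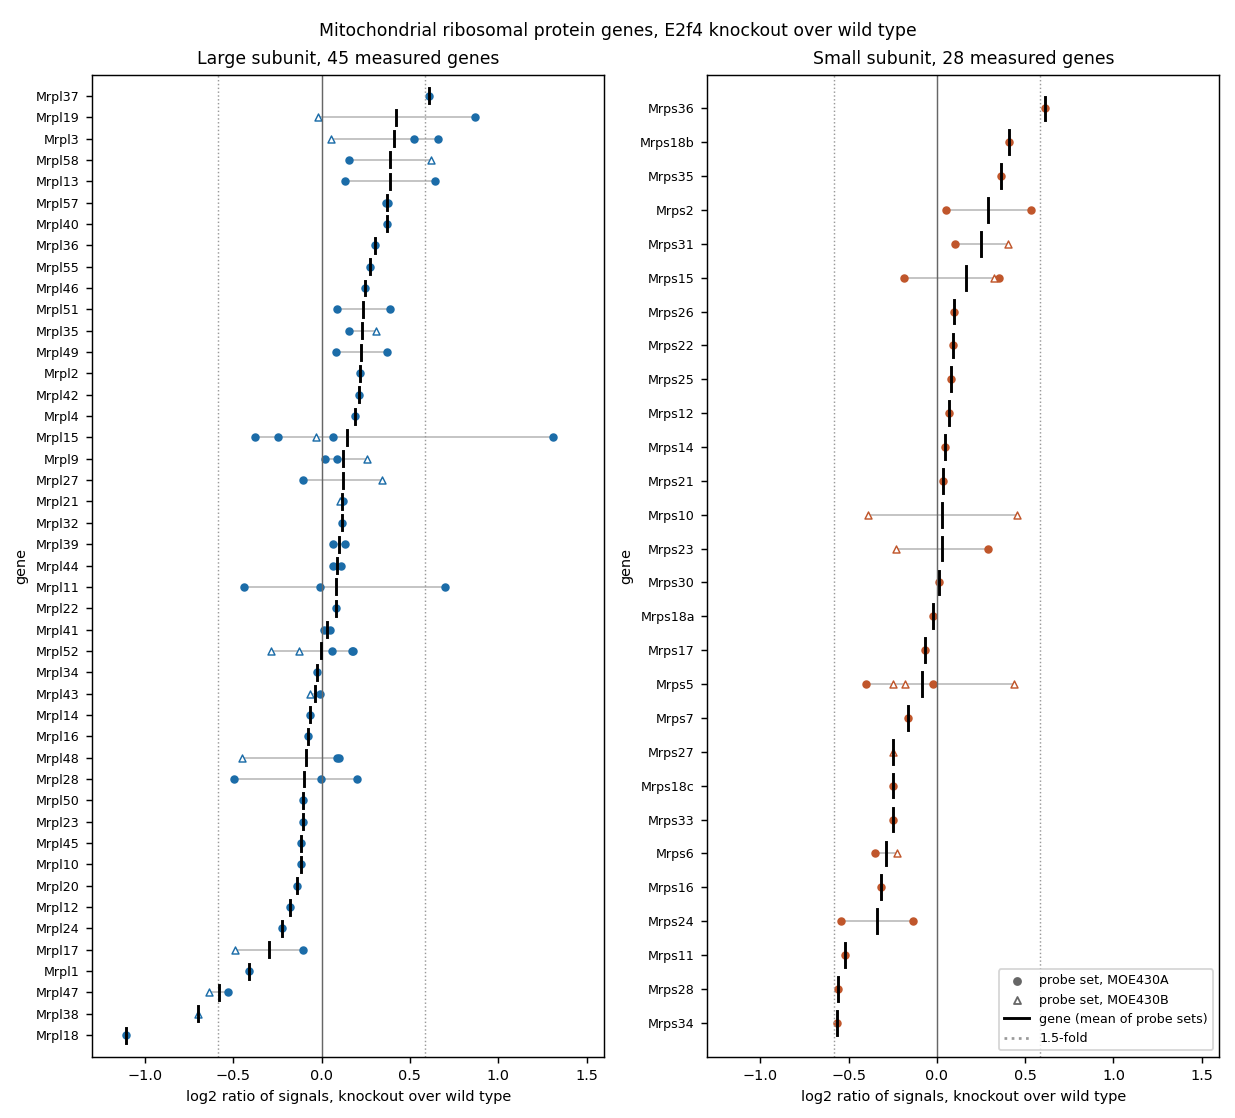
Log2 ratio of knockout over wild type (x axis) for each measured gene of the large subunit (left, 45 genes) and the small subunit (right, 28 genes), sorted from the highest at the top. Filled circles are MOE430A probe sets, open triangles MOE430B probe sets, and the black bar is the gene's mean. Most genes lie between the dotted 1.5-fold lines, with Mrpl37 and Mrps36 above and Mrpl18 and Mrpl38 below.

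Since E2F4 acts at promoters, short stretches of the RefSeq promoter windows are shown for 4 members that hold letters of an E2F site. They belong to Mrpl18, the lowest measured member, Mrps36, the highest, Mrps9, lower on every probe set, and Mrpl12, whose protein also binds the mitochondrial RNA polymerase. Each has 80 bases on the gene's strand in GRCm38.p6, and capitals mark E2F letters and, in Mrpl18, first the ETS letters CCGGAAG.
Mrpl12, chr11:120484471-120484550, + strand: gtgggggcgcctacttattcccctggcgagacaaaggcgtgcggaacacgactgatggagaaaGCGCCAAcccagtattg
Mrpl18, chr17:12916262-12916341, - strand: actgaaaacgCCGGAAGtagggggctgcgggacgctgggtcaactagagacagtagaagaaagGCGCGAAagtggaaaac
Mrps36, chr13:100744702-100744781, - strand: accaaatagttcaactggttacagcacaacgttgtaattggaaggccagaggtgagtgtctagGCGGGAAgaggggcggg
Mrps9, chr1:42850983-42851062, + strand: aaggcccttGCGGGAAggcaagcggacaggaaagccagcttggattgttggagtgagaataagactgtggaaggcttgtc

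The windows run from 250 bases before to 50 bases after a start, and 67 of the 76 members matched by symbol, with 73 windows. E2F letters were taken as the run TTGGCGC or any of its variants TTCCCGC and also TTCGCGC and also TTGCCGC on either strand. They were in 20.5% of member windows, against 9.57% of all 32851 windows. The ETS letters CCGGAAG, the core read by the GABP factors that act on many mitochondrial genes, were in 34.2% of member windows, against 8.86% of all. The NRF1 letters GCGCANGCG were in 20.5% of member windows, against 6.25% of all, and CCAAT in 39.7%, against 37.4%. The windows of all genes were not matched to the members for expression or base composition. No E2F match overlapped an ETS match in a member window. The 14 measured members with E2F letters had a median log2 ratio of 0.04, from -1.11 for Mrpl18 to 0.61 for Mrps36, against 0.03 for the 51 measured members whose windows lack them. The median was 0.03 both for the 24 measured members with ETS letters and for the 41 without. For NRF1 letters it was 0.08 over 14 measured members with them and 0.03 over 51 without. For CCAAT it was 0.08 over 24, of which 17 were higher, and -0.03 over 41, of which 19 were higher. None of these differences was tested. A match of letters is not a shown binding site.

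Among large subunit proteins with bacterial counterparts, those numbered up to Mrpl36, the median log2 ratio was 0.08 over 26 measured genes, of which 14 were higher in the knockout sample. Mrpl18, a protein of the central protuberance whose bacterial counterpart binds the small rRNA of the large subunit, stood lowest of all measured members. Its signal was 772 in the knockout sample, against 1665 in the wild type, a log2 ratio of -1.11 or 2.15-fold. It was the 1 measured member past 2-fold, where 0.482% of all measured genes were at least 2-fold lower. Mrpl54, with signals of 700 in the knockout sample and 1434 in the wild type, was not measured because the knockout signal was below the floor. The value rested on 1 probe set, with the knockout signal just over the floor of 736.

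Mrpl1, of the mobile stalk at the exit side of the ribosome, had signals of 896 in the knockout sample and 1195 in the wild type, a log2 ratio of -0.41. Both its other probe sets were below the floor, at -0.11 and -0.06. Mrpl17, near the exit of the peptide tunnel, was at -0.30, from -0.11 on MOE430A and -0.49 on MOE430B. The stalk proteins Mrpl10, Mrpl11 and Mrpl12 had log2 ratios of -0.12, 0.08 and -0.18. For Mrpl12 the signals were 2178 in the knockout sample and 2474 in the wild type.

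On the higher side, Mrpl19, a protein of the interface between the subunits, had a log2 ratio of 0.42. This was the mean of an MOE430A probe set at 0.87, with signals of 1409 in the knockout sample and 774 in the wild type, and an MOE430B probe set at -0.02, with 3133 and 3187. The 2 probe sets thus gave different answers for the same RNA. A further MOE430A probe set of Mrpl19 had 987 in the knockout sample and 662 in the wild type. It did not enter the value because the wild-type signal was below the floor. Mrpl3, a protein that reaches towards the peptidyl transferase centre, was at 0.41. Its MOE430A probe sets had 1232 and 3296 in the knockout sample, against 783 and 2298 in the wild type, and its MOE430B probe set 2182 against 2104. All 3 were above 0, with the MOE430B one at 0.05. Mrpl13 was at 0.39 from probe sets at 0.13 and 0.64, though at -0.33 when probe sets below the floor were counted, and Mrpl36 at 0.30. Of the remaining conserved proteins Mrpl2, Mrpl4, Mrpl22 and Mrpl23, of the ribosomal core and the peptide tunnel, stood at 0.22, 0.19, 0.08 and -0.11.

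Large subunit proteins from Mrpl37 to Mrpl58, mostly particular to mitochondria, had a median of 0.10 over 19 measured genes, of which 12 were higher in the knockout sample. The median was 0.14 over 18 genes on MOE430A and -0.33 over 6 on MOE430B, where 1 gene was higher. Mrpl37 was highest, with signals of 1498 in the knockout sample and 985 in the wild type, a log2 ratio of 0.61 from 1 probe set. Mrpl40 and Mrpl46, both of the central protuberance, were at 0.37 and 0.25. Mrpl57 was at 0.37, and its 2 probe sets lay within 0.01 of each other, at 0.37 and 0.38. Mrpl58, which can release peptides from stalled ribosomes, was at 0.39, from 0.15 on MOE430A and 0.62 on MOE430B. Mrpl44, which carries a fold like that of an RNA-cleaving enzyme, was at 0.09.

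Mrpl38, another protein of the central protuberance, was at -0.70, with signals of 1331 in the knockout sample and 2162 in the wild type on its 1 measured probe set, on MOE430B. An MOE430A probe set ran the other way, with 829 in the knockout sample and 650 in the wild type, and did not enter the value because the wild-type signal was below the floor. Mrpl47 was at -0.58, just short of the 1.5-fold size. Its signals were 1115 in the knockout sample and 1612 in the wild type on MOE430A, and 1517 and 2363 on MOE430B. Among the 8 lowest large subunit genes, Mrpl47 and Mrpl17 were the ones measured on both designs, and both were lower on each. The 8 were picked by the mean of these same probe sets, so the shared direction is no separate result.

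In the small subunit, Mrps36 was highest, with signals of 2737 in the knockout sample and 1795 in the wild type, a log2 ratio of 0.61 from 1 probe set. Its protein is better known as a part of the 2-oxoglutarate dehydrogenase complex than as a stable ribosomal protein. Mrps18b, Mrps35 and Mrps2 followed at 0.41, 0.36 and 0.29. At the low end stood Mrps34, Mrps28 and Mrps11 at -0.57, -0.56 and -0.52. Mrps34, which small subunit stability depends on in mouse, had signals of 1891 in the knockout sample and 2803 in the wild type. Mrps28 had 1167 in the knockout sample and 1725 in the wild type, and Mrps11, of the platform, 1559 and 2245. Each of these 3 values came from 1 measured probe set.

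Mrps24, a protein at the mRNA entry, was at -0.34 from probe sets at -0.55 and -0.14. Mrps6 was at -0.29, with -0.35 on MOE430A and -0.23 on MOE430B. Mrps12, of the decoding centre, was at 0.07, with signals of 2247 in the knockout sample and 2151 in the wild type. Mrps5, at the mRNA entry, was at -0.08 over 5 probe sets that ranged from -0.40 to 0.44. Mrps18a and Mrps18c, encoded by paralogs of Mrps18b, were at -0.02 and -0.25.

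Only 3 members were not measured, and each was above the floor in 1 sample alone. Mrps9, a protein of the small subunit head, was above it in the wild type on 3 of its 4 probe sets. Signals on these were 649, 602 and 604 in the knockout sample, against 1030, 855 and 794 in the wild type. The fourth had 470 in the knockout sample and 616 in the wild type, so Mrps9 was lower on all 4, at log2 ratios from -0.66 to -0.39 with a mean of -0.49, and by the brightest probe set it was at least 1.40-fold lower. Mrpl54 had signals of 700 in the knockout sample and 1434 in the wild type on MOE430A, at least 1.95-fold lower. On MOE430B neither sample reached the floor, at 219 in the knockout sample and 193 in the wild type. Mrpl33 had 932 in the knockout sample and 624 in the wild type, at least 1.27-fold higher, and on its other probe set neither sample reached the floor.

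**Figure D2:**
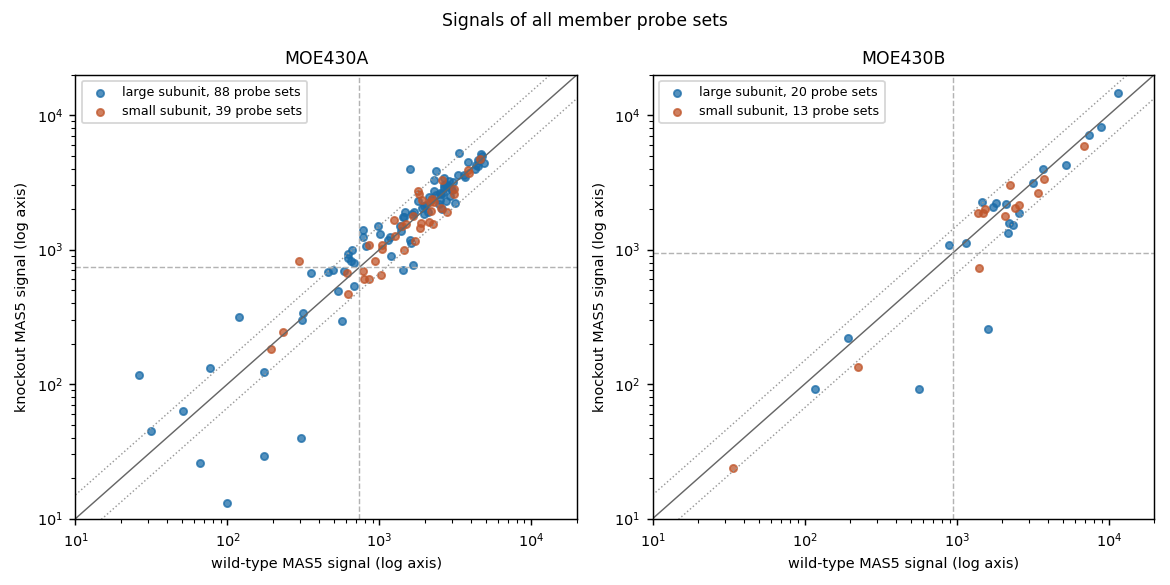
MAS5 signal in the knockout sample (y axis) against the wild type (x axis) for every member probe set, both axes logarithmic, with MOE430A left (127 probe sets) and MOE430B right (33). The solid line marks equal signals, dotted lines 1.5-fold and dashed lines the floor. Among probe sets above the floor in both samples the widest departure is 1 of Mrpl15, at a log2 ratio of 1.31, and then Mrpl18 at -1.11.

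The differences between members were of the size of those between probe sets of 1 gene. The SD of gene ratios was 0.31 over large subunit genes, 0.29 over small subunit genes and 0.32 over all measured genes. The pooled SD between measured probe sets of the same gene was 0.35 over the 30 members with more than 1, and 0.33 over 3956 genes. All measured probe sets lay on 1 side of 0 for 19 of these 30 members, 14 higher and 5 lower. This count was not made over all genes, so it does not show agreement beyond chance. Measured probe sets of a gene differed by over 0.5 for 11 of the 30. The widest was Mrpl15, whose 5 measured probe sets ranged from -0.38 to 1.31. The top one had 3951 in the knockout sample and 1598 in the wild type. Mrpl11 ranged from -0.44 to 0.70, Mrps10 from -0.39 to 0.45, Mrpl28 from -0.50 to 0.20, Mrpl48 from -0.45 to 0.10, Mrps15 from -0.19 to 0.35, Mrps5 from -0.40 to 0.44 and Mrps23 from -0.23 to 0.29. No gene past 1.5-fold had a second measured probe set.

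Of 18 members measured on both designs, the designs were on the same side of 0 for 11, a count also not made over all genes. Among these 18, Mrpl47 and Mrps6 were lower on both by over 0.2, and Mrpl21 was at 0.12 and 0.11, Mrpl35 at 0.15 and 0.31 and Mrps31 at 0.10 and 0.40 on MOE430A and MOE430B. Mrpl27, Mrpl43 and Mrpl52 carry 4 probe sets that are printed on both designs, and these show what a repeat array gives for the same RNA and probes. Mrpl27 had 4146 in the knockout sample and 4467 in the wild type on MOE430A, and 14640 and 11555 on MOE430B, which are log2 ratios of -0.10 and 0.34. A further Mrpl27 probe set, on MOE430B alone, had 257 in the knockout sample and 1620 in the wild type, and did not enter the value because the knockout signal was below the floor. Mrpl43 was at -0.01 and -0.07 on MOE430A and MOE430B. Both shared probe sets of Mrpl52 changed sign, with 0.18 and 0.17 on MOE430A and -0.29 and -0.13 on MOE430B. Differences between the designs had an SD of 0.31 over the 99 shared probe sets that passed the floor on each.

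**Figure D3:**
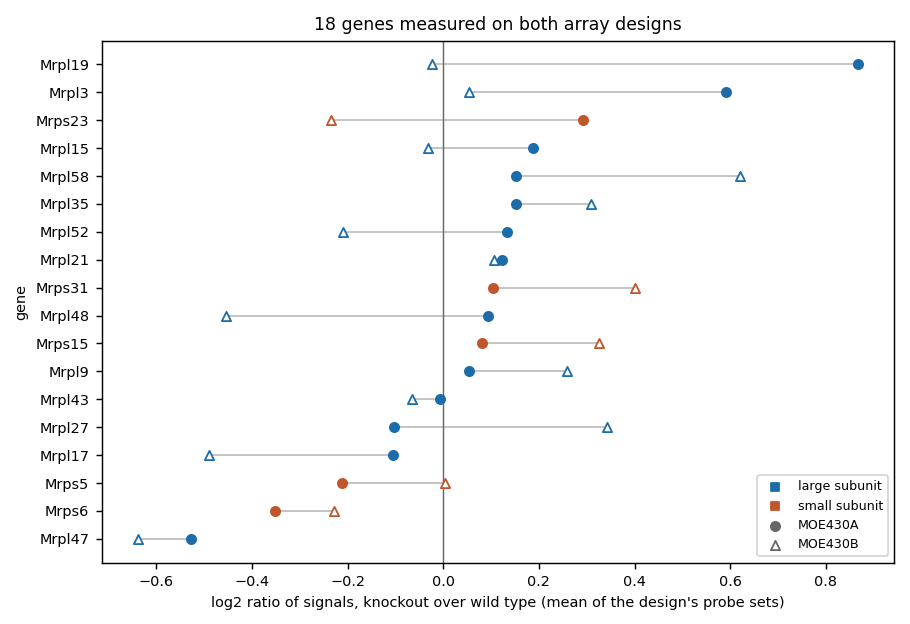
Log2 ratio of knockout over wild type (x axis) for the 18 members measured on both designs, as the mean of each design's probe sets, with circles for MOE430A and triangles for MOE430B. The designs are on the same side of 0 for 11 genes, and Mrpl19 has the widest gap, at 0.87 and -0.02.

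Other genes of mitochondrial translation had list medians between -0.12 and 0.03. Ribosomal proteins with other symbols had a median of -0.11 over 4 measured genes, with Chchd1, a small subunit protein, lowest at -0.29, then Gadd45gip1 of the large subunit at -0.14, Ptcd3 at -0.09 and Dap3 at 0.001. Translation factors had a median of -0.12 over 8 measured genes, 3 of them higher. Mtfmt, which formylates the initiator tRNA, was at -0.46, with signals of 817 in the knockout sample and 1125 in the wild type, while Guf1, a GTPase of elongation, was at 0.40 and the elongation factor Tsfm at -0.26. Mitochondrial aminoacyl-tRNA synthetases, which load tRNAs, had a median of 0.03 over 7 measured of 16 on the arrays. The 3 farthest from 0 were Lars2 at 0.58, with 4425 in the knockout sample and 2972 in the wild type, Wars2 at 0.52 and Iars2 at -0.50. Assembly and rRNA factors had a median of -0.004 over 16 measured genes, 8 on each side, led by the GTPase Mtg1 at -0.32, Rbfa, a small subunit maturation factor, at -0.31, and Lrpprc, which stabilises mitochondrial mRNAs, at -0.30. None of these genes reached 1.5-fold.

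Regulators of mitochondrial transcription and biogenesis had a median of 0.01 over 12 measured genes, 6 of them higher. The 3 lowest were the core of the mitochondrial transcription machinery. Polrmt, the mitochondrial RNA polymerase, averaged 1744 in the knockout sample and 2541 in the wild type, a log2 ratio of -0.52 from probe sets at -0.61 and -0.43. Tfb2m, an initiation factor, had 1214 and 1699, or -0.48, and Tfam, which packages and transcribes mitochondrial DNA, 1819 and 2340, or -0.32 from probe sets at -0.43 and -0.21. All 5 measured probe sets were lower, and none of the 3 genes reached 1.5-fold. The 3 were named for being farthest from 0 in the list, so the direction of their probe sets is no separate result. Mterf1a of the same list was at 0.23. The nuclear factors Nrf1 and Gabpb1 were at -0.01 and -0.12.

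Set beside similar groups, nuclear subunits of oxidative phosphorylation had a median of -0.02 over 75 measured genes, 36 higher, and cytosolic ribosomal proteins one of 0.14 over 45, 39 higher. The gene names used for the cytosolic list also take 5 S6 kinase genes and Rps19bp1, which are not ribosomal proteins and were left out after their values were seen; with these 6 the median was 0.12 over 51 genes. The SD of gene ratios was 0.19 for oxidative phosphorylation and 0.20 for cytosolic ribosomal proteins. It was 0.31 and 0.29 for the large and small mitochondrial subunits, and 0.32 for all measured genes. The groups were not matched for signal level, and its part in these SDs was not tested. Ratios within 0.2 of 0 were found for 85.3% of oxidative phosphorylation genes and 52.1% of mitochondrial ribosomal protein genes, against 53.9% of all measured genes. With 1 sample per genotype these differences between groups could not be tested.

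**Figure D4:**
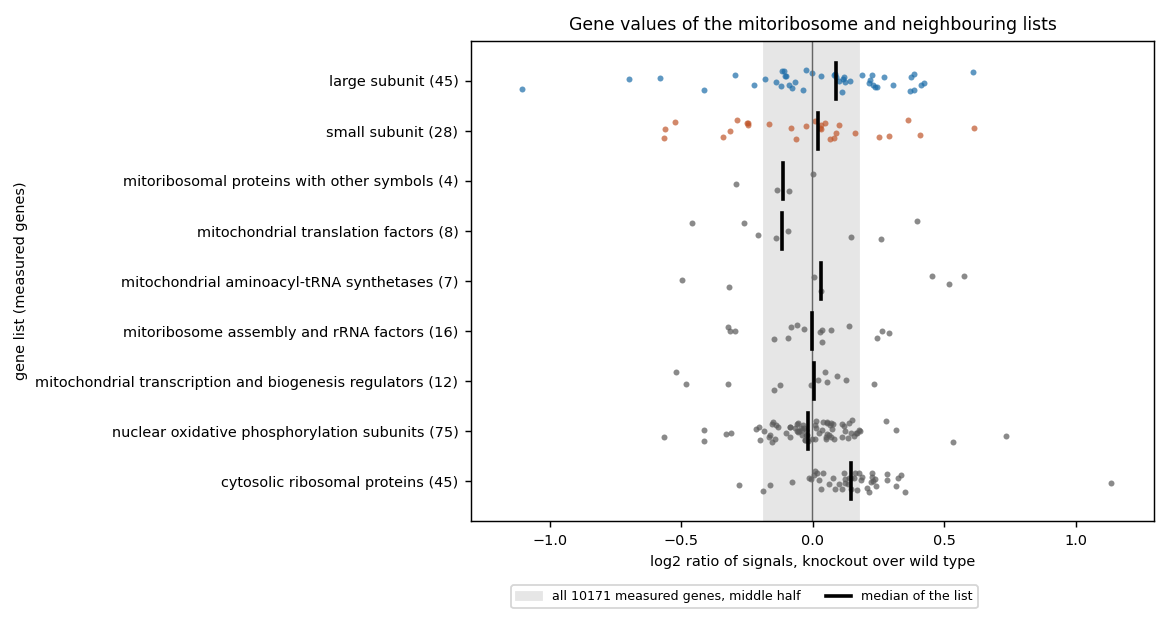
Log2 ratio of knockout over wild type (x axis) of each measured gene (points, spread vertically for display) in the large and small subunit and in other lists, with the number of measured genes in brackets. Black bars are list medians and the grey band is the interquartile range of all 10171 measured genes. Every list median lies inside the band.

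Facts of the arrays bear on all these values. E2f4 had 1 probe set, with 1535 in the knockout sample and 1812 in the wild type, and the sources used here do not place it relative to the deletion, so it does not check the label. Neural progenitor markers were measured for 6 of 6 genes on the arrays, with log2 ratios from -0.04 to 0.44. Markers of ventral telencephalon were measured for 5 of 5 and ran from -0.95 to -0.14, and those of neurons for 5 of 5, from -0.39 to 0.03. Embryonic globin RNA was abundant in both samples, with Hbb-y at 61944 in the knockout sample and 77853 in the wild type, Hba-x at 18976 and 27119, and Hbb-bh1 at 3252 and 6018. Their log2 ratios ran from -0.88 to -0.33, while Alas2 had no measured probe set. These are markers of red blood cells, and how their RNA came into samples described as neurospheres was not tested. Microglia markers were measured for 2 of 4, at -0.63 and -0.25, and of the endothelial markers Kdr alone was measured, at 0.38. Whether cell make-up differed between the samples, and what part it had in the members' ratios, was not tested. In RNA from whole cultures fewer cells of a type and less RNA per cell cannot be told apart. RNA integrity was read from Gapdh, whose 3' over 5' signal was 0.898 in the knockout sample and 0.862 in the wild type on MOE430A, and 0.799 and 0.948 on MOE430B. The 2 arrays of a design shared a hybridisation day, and the designs were run on different days.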

How the data were processed

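The authors deposited MAS5 signal intensities on a linear scale, 1 value per probe set and array, and MAS5 is named per the submitters' processing notes, without a version. The values show that the authors scaled each array to a mean of about 1500 after trimming 2% at each end; detection calls were not used here. Control probe sets, 64 per design, were left out. Ratios of knockout over wild type were taken per design as log2 and had the median of the measured probe sets subtracted, which was -0.003 for MOE430A and -0.001 for MOE430B. Gene symbols came from the platform annotation, and all 76 members matched RefSeq (GRCm38.p6) by identifier with the same symbol. Of 78 protein-coding RefSeq genes with such symbols, Mrpl30 and Mrpl53 had only probe sets shared with another symbol and were left out, as was 1 of Mrps34. These probe sets were lower in the knockout sample, at log2 ratios of -0.35, -0.25 and -0.34 for Mrpl30, Mrpl53 and Mrps34 on MOE430A. Members, lists and the 1.5-fold size were chosen with earlier results of these data known. The split at Mrpl36 was made in the same way. Named members are the 8 highest and 8 lowest of each subunit, those above the floor in 1 sample only, those on both designs or with probe sets over 0.5 apart, and 12 by role; a few others are named as examples of their function, chosen after their values were seen. Promoter windows are RefSeq's. The number of arrays limits the precision. The calculation was tested on simulated data. The work used pandas 2.3.3 and numpy 2.4.6 in Python 3.11.15, with statsmodels 0.14.6 for lowess, scipy 1.17.1 for intervals and matplotlib 3.10.9 for plots.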

Additional observations from a re-analysis of the deposited data

How the results depend on the processing

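Over 14 alternatives the large subunit median ranged from -0.03 to 0.10 and was above 0 in 13, the exception being MOE430B alone, with 14 genes. The small subunit median ranged from -0.09 to 0.03 and was above 0 in 8; its sign therefore depended on the floor and on how probe sets were combined. Neither left its 95% binomial interval over genes, from -0.07 to 0.19 for the large and from -0.25 to 0.08 for the small subunit. These intervals take genes as independent and come from the same arrays, so they do not measure the spread between RNA samples. Counts of members at least 1.5-fold different, 2 higher and 2 lower, moved more. With no floor there were 4 higher and 4 lower of 76, and with a pseudocount equal to the floor 0 higher and 1 lower. With the floor at the 70th percentile 0 were lower. The higher count was 4 when each gene took its brightest probe set, 4 when probe sets marked _x_at, _s_at or _a_at were dropped, and 8 of 118 with each probe set as its own value. On MOE430A alone it was 4 higher and 1 lower of 70, and on MOE430B alone 1 higher of 21. Without centring, and with quantile normalization, 3 were lower. Of 536 values of named members under alternatives, 510 stayed within the pooled SD between probe sets. That SD, 0.35, exceeds the ratios of most members. A member with 1 measured probe set also keeps its value where alternatives only choose or combine probe sets, so this count is little evidence of stability. The 4 members past 1.5-fold kept their sign, with Mrpl38 at -0.08 with no floor, but 12 of the 49 named measured members took the other sign under at least 1 alternative. With no floor these were 7, among them Mrpl27 at -0.81, Mrpl35 at -0.71, Mrpl11 at -0.68, Mrpl15 at -0.39, Mrpl13 at -0.33 and Mrps26 at -0.33, all above 0 with it. The median up to Mrpl36 was -0.11 with no floor, and that from Mrpl37 on was -0.33 on MOE430B alone. Counting Mrps18a and Mrps30 in the large subunit, where the ribosome's structure places them, and leaving out Mrps36 gave medians of 0.08 and 0.03; this grouping, the shorter cytosolic list, and counting shared probe sets once, were chosen after seeing the data.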
